A study of Mus musculus with 10 samples.

Results

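Sertoli cell genes in the testes of Mov10-/- and Mov10+/+ mice were examined across 10 genes chosen by name, out of 55421 genes in the deposited counts. The genes were Fshr, Sox9, Amh, Inha, Inhbb, Rhox5, Cldn11, Clu, Gata1 and Dhh, a choice that sets no threshold on a measured value but was made with earlier results of these data known. Whole testes of postnatal day 21 (P21) males were profiled by poly(A) RNA-seq, with 3 Mov10+/+ libraries (replicates 1, 2 and 3) and 3 Mov10-/- libraries (replicates 2, 3 and 4), each from a pair of testes. The Mov10-/- mice lacked MOV10, an RNA helicase that inhibits retrotransposons, in all tissues, because the ubiquitously expressed Actb-Cre deleted the floxed exons of the first helicase domain. The Mov10 mutant mice were on a mixed 129 x C57BL/6 x FVB background, and the deletion was not restricted to Sertoli cells. The background of the Mov10+/+ mice used for RNA-seq is not stated separately. The labels do not state whether each pair of testes came from a different litter, so the p-values measure only the spread between these libraries. Of 4 further libraries of RNA crosslinked to MOV10 in Mov10+/+ P21 testis (CLIP-seq, replicates 1, 2, 3 and 5), only the reads on these 10 genes are described here.

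Sertoli cells are the somatic cells of the seminiferous tubule that enclose and nourish the germ cells. Before puberty they divide and secrete anti-Müllerian hormone, and as they mature they stop dividing, lose most Amh, form tight junctions between neighbouring cells and respond to follicle-stimulating hormone (FSH) and androgen by secreting inhibin and carrier proteins. At P21 most of this maturation is under way or complete and the first round spermatids are appearing, so germ cells make up a large and growing share of the RNA of a whole testis. In such bulk RNA, fewer cells of a type and less RNA per cell cannot be told apart.

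The RNA-seq libraries held 5083407 to 9230540 reads on genes, the fewest in Mov10-/- replicate 3, in which 57.2% of all reads did not align, against 26.5% to 35.9% in the other 5 libraries. Levels are given as CPM, counts per 1000000 reads on genes, after TMM scaling, which sets the bulk of genes equal between libraries. Mov10 itself was at 114, 96.8 and 120 CPM in the Mov10+/+ libraries and at 29.2, 26.7 and 26.8 CPM in the Mov10-/- libraries, lower in every library labelled Mov10-/-, with a log2 fold change of -2.00 ± 0.12 (SE) and edgeR quasi-likelihood adjusted p = 0.00552. The tissue label was checked against the lists of cell type genes: all 12 spermatocyte genes, 8 of 9 Leydig cell genes and 21 of 22 further Sertoli cell genes passed the filter on low counts, which required a CPM by library size (RPM) above 1 in at least 3 of the 6 libraries. Mov10+/+ replicate 2 stood apart in 1 respect that touches the results below: the summed level of 13 spermatid genes was 987 CPM there, against 376 and 240 CPM in the other Mov10+/+ libraries.

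Of the 10 Sertoli cell genes, 9 passed the filter, and Rhox5 did not. All 9 had a higher fitted level in Mov10-/- testes, by 1.19-fold (Gata1) to 1.37-fold (Amh), with a median log2 fold change of 0.31 beside 0.03 over all 20240 genes tested. None was called by edgeR's quasi-likelihood test, for which a call needed both an adjusted p below 0.05 and more than a 2-fold difference. Of all tested genes 0.00494% were called, which was Mov10 alone. At an unadjusted p under 0.05 there were 3, Sox9, Inha and Cldn11, all higher in Mov10-/-, beside 5.58% of all tested genes that were higher at that p. In 3 genes, Inha, Cldn11 and Gata1, every Mov10-/- library lay above every Mov10+/+ library, as in 11.9% of all tested genes, and in the other 6 the genotypes overlapped. None of the 9 was called by DESeq2, which called 5.13% of all genes, by edgeR's exact test (5.37%), by its likelihood ratio test (5.86%) or by limma voom (0.00988%), and each of these tools also gave 3 members at an unadjusted p under 0.05. The 95% intervals of the 9 fold changes reached from 0.898 to 2.10, so a fold change above 2.10 lay outside the interval of each of the 9 genes.

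**Figure D1:**
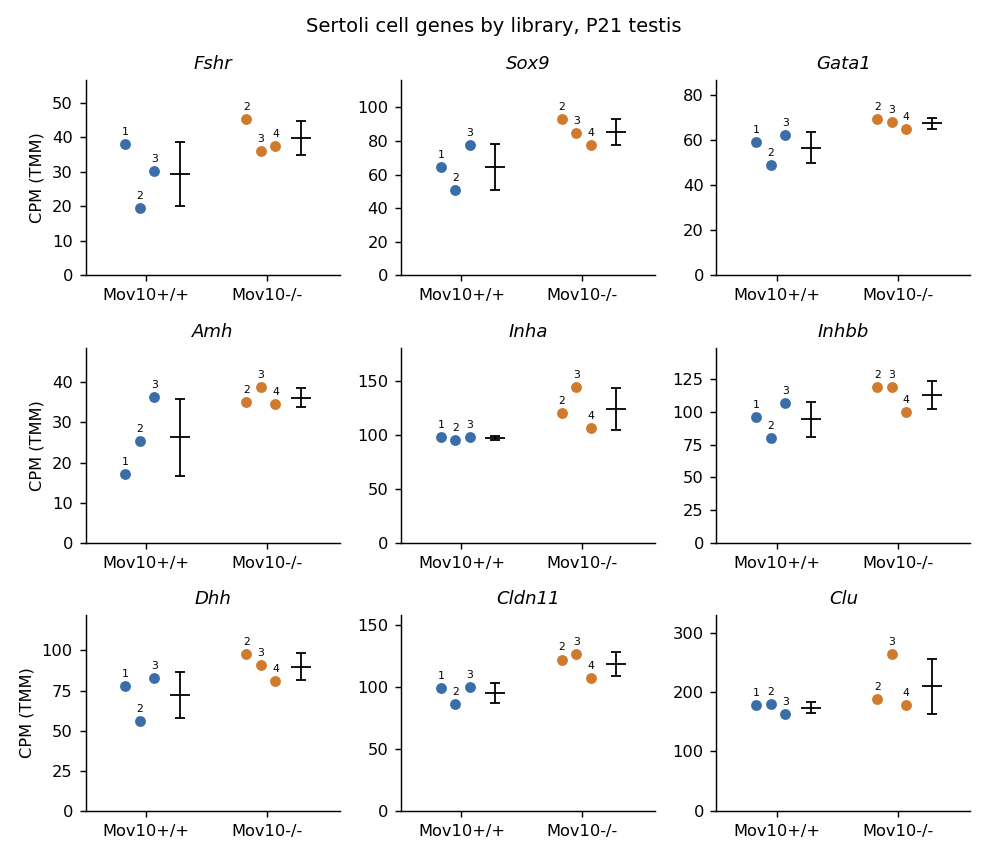
CPM (TMM scaled, linear axis from 0) of the 9 Sertoli cell genes that passed the filter, 1 point per library with its replicate number, in Mov10+/+ (blue) and Mov10-/- (orange) P21 testes, with bars for the mean and SD of 3 libraries. The genotype means differ by less than 1.5 times in each panel, and the genotypes lie apart in Inha, Cldn11 and Gata1.

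Because these genes lay together, the 250 bases before the transcription start are shown for the 4 members whose RefSeq start (GRCm38.p6, the assembly of mm10) coincides with the start of the gene in the annotation used, Fshr, Inhbb, Cldn11 and Dhh. Each is written 5′ to 3′ on the strand of its gene, in lower case with motif matches in capitals. The motifs searched, on both strands and with no overlap between the matches, were CACGTG (an E-box, bound by USF factors), GATAA (bound by GATA factors), ACAAT (bound by SOX factors), AGGTCA (a nuclear receptor half-site) and TGACG (part of a cAMP response element).
Fshr (chr17:89200676-89200925, minus strand): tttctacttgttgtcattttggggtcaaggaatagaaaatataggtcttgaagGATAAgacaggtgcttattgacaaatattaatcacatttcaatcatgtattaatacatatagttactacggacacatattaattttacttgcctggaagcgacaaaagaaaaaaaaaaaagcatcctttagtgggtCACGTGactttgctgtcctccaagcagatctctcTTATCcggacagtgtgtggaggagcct
Inhbb (chr1:119422249-119422498, minus strand): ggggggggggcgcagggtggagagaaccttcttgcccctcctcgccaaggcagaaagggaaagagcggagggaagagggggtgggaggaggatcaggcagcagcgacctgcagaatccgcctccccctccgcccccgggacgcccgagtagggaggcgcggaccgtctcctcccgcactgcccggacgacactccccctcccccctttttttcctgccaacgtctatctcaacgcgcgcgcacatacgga
Cldn11 (chr3:31149670-31149919, plus strand): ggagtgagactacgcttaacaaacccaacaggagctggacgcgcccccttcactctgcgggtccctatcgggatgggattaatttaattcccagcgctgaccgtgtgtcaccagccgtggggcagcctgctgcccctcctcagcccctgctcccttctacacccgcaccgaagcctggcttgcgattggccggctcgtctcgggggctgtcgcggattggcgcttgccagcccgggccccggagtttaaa
Dhh (chr15:98898541-98898790, minus strand): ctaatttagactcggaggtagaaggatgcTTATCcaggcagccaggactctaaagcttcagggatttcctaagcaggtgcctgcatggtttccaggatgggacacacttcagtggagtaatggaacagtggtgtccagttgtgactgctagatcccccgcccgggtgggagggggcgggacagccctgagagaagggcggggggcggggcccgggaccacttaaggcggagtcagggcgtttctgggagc

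The Fshr window held 3 matches, CACGTG beginning 61 bases before the start and GATAA beginning 197 and, on the opposite strand (TTATC), 27 bases before it. The Dhh window held 1 match, GATAA on the opposite strand 221 bases before the start, and the Inhbb and Cldn11 windows held none. CACGTG lay in 6.02% of 32851 such windows, GATAA in 22.6%, ACAAT in 27.7%, AGGTCA in 14.0% and TGACG in 17.8%. The windows also differed in base composition, with 36.8% G and C in Fshr against 68.0% in Inhbb, 63.6% in Cldn11 and 59.6% in Dhh, beside a median of 52.4% over all windows. A match is a run of letters and not a shown binding site.

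Fshr encodes the receptor for FSH, a G protein-coupled receptor that in the testis is made by Sertoli cells. Its gene lies on chromosome 17, from 88984952 to 89200675 on the minus strand (mm10, as all positions here), directly downstream of the first window above. Fshr was at 38.2, 19.6 and 30.3 CPM in Mov10+/+ replicates 1, 2 and 3, and at 45.4, 36.2 and 37.6 CPM in Mov10-/- replicates 2, 3 and 4. The lowest value was that of Mov10+/+ replicate 2, and Mov10+/+ replicate 1 lay within the Mov10-/- range, so the genotypes overlapped. The means were 29.3 ± 9.32 and 39.7 ± 4.96 CPM (SD, n = 3 each), a log2 fold change of 0.44 ± 0.25 (SE) with edgeR adjusted p = 0.406. It was 0.66 without Mov10+/+ replicate 1 and 0.23 without Mov10+/+ replicate 2. Downstream of the receptor, a list of 9 genes of FSH and cAMP signalling all passed the filter and none was called. Their median log2 fold change was 0.09, and its sign rested on single libraries, at -0.02 without Mov10+/+ replicate 2, -0.08 without Mov10-/- replicate 2 and 0.17 to 0.25 without any other library. Gnas, the stimulatory G protein subunit, lay apart and higher, at 114 ± 2.11 CPM in Mov10+/+ and 142 ± 22.7 CPM in Mov10-/- (SD, n = 3 each, edgeR adjusted p = 0.259). Adcy3, an adenylyl cyclase, was also higher in every Mov10-/- library, with means of 25.0 and 31.3 CPM. Crem, a cAMP-responsive transcription factor best known in spermatids, was lower in every Mov10-/- library, with means of 114 and 93.3 CPM. Prkar2b, a regulatory subunit of protein kinase A, had overlapping genotypes and a log2 fold change of 0.39 ± 0.20 (SE).

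Sox9, the transcription factor that commits the supporting cells of the fetal gonad to the Sertoli fate, lies on chromosome 11 from 112782224 to 112787760 on the plus strand. Its level was 64.7, 50.7 and 77.8 CPM in the Mov10+/+ libraries and 93.2, 84.5 and 77.8 CPM in the Mov10-/- libraries. Mov10+/+ replicate 3 and Mov10-/- replicate 4 had the same level to 3 digits, so the genotypes touched there, while the other Mov10-/- libraries lay above every Mov10+/+ library. The log2 fold change was 0.40 ± 0.17 (SE), with edgeR adjusted p = 0.264. Gata1, a zinc finger factor of blood precursors that in the testis is made by Sertoli cells from the first wave of spermatogenesis on, lies on the X chromosome from 7959260 to 7978071 on the minus strand. It was at 58.8, 48.8 and 62.1 CPM in Mov10+/+ and at 69.2, 67.8 and 64.6 CPM in Mov10-/-. The Mov10-/- libraries were tightly grouped and all above the Mov10+/+ libraries, but by a margin of only 64.6 against 62.1 CPM at the closest pair. With means of 56.5 ± 6.94 and 67.2 ± 2.40 CPM (SD, n = 3 each), its log2 fold change of 0.25 ± 0.12 (SE) had edgeR adjusted p = 0.351.

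Rhox5, an androgen-regulated homeobox gene of the X chromosome (37804842 to 37808876, plus strand) and a usual marker of androgen action in Sertoli cells, was nearly absent from these counts. It had 0 reads in 5 libraries and 1 read, 0.125 CPM, in Mov10-/- replicate 4. A count of 0 allows up to 3 reads, which is 0.325 to 0.590 CPM in these libraries, as counting error only. The other 9 members had at least 143 reads in each library, so in these counts Rhox5 does not mark the Sertoli cells as they do. The neighbouring genes of the Rhox cluster were likewise empty, with 0 reads in all 6 libraries for Rhox6, Rhox7b, Rhox8 and Rhox9 and 1 read for Rhox7a. Rhox5 therefore entered no comparison of genotypes, and whether reads on this cluster were lost in alignment or counting was not tested.

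Amh encodes anti-Müllerian hormone, the signal of immature Sertoli cells that removes the Müllerian ducts in the male fetus. The gene lies on chromosome 10 from 80805243 to 80807648 on the plus strand. Amh was at 17.2, 25.3 and 36.2 CPM in the Mov10+/+ libraries, from 146, 185 and 337 reads, and at 35.0, 38.9 and 34.6 CPM in the Mov10-/- libraries. The Mov10+/+ libraries were spread over more than the whole distance between the genotype means, with replicate 3 inside the Mov10-/- range, while the Mov10-/- libraries were alike. The means were 26.2 ± 9.53 and 36.1 ± 2.37 CPM (SD, n = 3 each). The log2 fold change was 0.46 ± 0.27 (SE), the highest of the 9, with a 95% interval from -0.16 to 1.07 and edgeR adjusted p = 0.414. It was 0.22 without Mov10+/+ replicate 1 and 0.75 without Mov10+/+ replicate 3. All 5 genes of its receptor pathway passed the filter and none was called. Amhr2, the specific receptor of the hormone, which both Sertoli and Leydig cells make, lay apart and higher, at 142 ± 6.43 CPM in Mov10+/+ and 165 ± 8.96 CPM in Mov10-/- (SD, n = 3 each, edgeR adjusted p = 0.267). Smad1, one of its signal transducers, had a log2 fold change of -0.27 ± 0.12 (SE) with overlapping genotypes. Acvr1 and Smad5, a shared type I receptor and a second transducer, had log2 fold changes of 0.55 ± 0.37 and 0.13 ± 0.10 (SE), again with overlap.

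Inha and Inhbb encode the alpha and beta B subunits that together make inhibin B, the Sertoli cell hormone that restrains FSH release from the pituitary. Inha lies on chromosome 1 from 75507077 to 75510366 on the plus strand. It was at 98.6, 95.3 and 98.5 CPM in the Mov10+/+ libraries and at 121, 145 and 106 CPM in the Mov10-/- libraries. Every Mov10-/- library was above every Mov10+/+ library, and the spread lay almost wholly in the Mov10-/- libraries. The means were 97.5 ± 1.86 and 124 ± 19.5 CPM (SD, n = 3 each), a log2 fold change of 0.35 ± 0.12 (SE) with edgeR adjusted p = 0.218. Inhbb, on the same chromosome from 119415465 to 119422248 on the minus strand, was at 95.9, 80.3 and 107 CPM in Mov10+/+ and at 119, 119 and 100 CPM in Mov10-/-. Here Mov10-/- replicate 4 lay below Mov10+/+ replicate 3, so the genotypes overlapped, and the log2 fold change was 0.25 ± 0.13 (SE) with edgeR adjusted p = 0.365. Inhba, the other beta subunit, was low, at 4.52 to 7.09 CPM in Mov10+/+ and 4.32 to 10.2 CPM in Mov10-/-. The list of 7 genes of inhibin and activin action, Inhba included, was tested in full and none was called. Fstl3, an extracellular activin inhibitor, lay apart and higher, at 39.4 ± 5.42 against 52.1 ± 3.79 CPM (SD, n = 3 each, edgeR adjusted p = 0.225). Acvr2a, an activin type II receptor, lay apart and lower, at 72.0 ± 0.972 against 63.8 ± 5.58 CPM. Acvr2b and Tgfbr3, a second type II receptor and the inhibin co-receptor betaglycan, overlapped, with log2 fold changes of 0.38 ± 0.24 and 0.26 ± 0.20 (SE).

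Dhh encodes Desert hedgehog, the Sertoli cell ligand that acts on Leydig and peritubular cells. The gene lies on chromosome 15 from 98891152 to 98898540 on the minus strand. Its level was 78.1, 55.9 and 82.9 CPM in Mov10+/+ and 97.5, 91.1 and 80.7 CPM in Mov10-/-. Mov10+/+ replicate 3 was above Mov10-/- replicate 4, so the genotypes overlapped. The log2 fold change was 0.31 ± 0.16 (SE), with edgeR adjusted p = 0.367. Dhh overlaps Rhebl1 on its own strand and a predicted antisense gene, and how the counting used strand is not stated. Reads of these 3 genes may have been left out as ambiguous or assigned to one another. No other member overlapped an annotated gene. The 7 genes of hedgehog reception and response all passed the filter and none was called. Smo, the membrane transducer, lay apart and higher, at 60.7, 30.8 and 49.6 CPM in Mov10+/+ and 81.3, 63.9 and 65.3 CPM in Mov10-/- (edgeR adjusted p = 0.267). Gli1, which is induced by the pathway, had a log2 fold change of 0.40 ± 0.24 (SE) and Gli2, a transcription factor of the pathway, one of 0.44 ± 0.26, both with overlapping genotypes.

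Cldn11 encodes claudin 11, the main strand protein of the tight junctions between Sertoli cells that form the blood-testis barrier. It lies on chromosome 3 from 31149920 to 31164324 on the plus strand. Cldn11 was at 99.2, 86.0 and 100 CPM in the Mov10+/+ libraries and at 122, 126 and 107 CPM in the Mov10-/- libraries. All Mov10-/- libraries were higher than all Mov10+/+ libraries. The means were 95.1 ± 7.85 and 118 ± 9.94 CPM (SD, n = 3 each), a log2 fold change of 0.31 ± 0.11 (SE) with edgeR adjusted p = 0.206, the smallest of the 9. Clu encodes clusterin, a secreted chaperone abundant in Sertoli cell fluid and also made in the rete testis and epididymis, and lies on chromosome 14 from 65968483 to 65981547 on the plus strand. It was at 177, 180 and 163 CPM in Mov10+/+ and at 188, 263 and 178 CPM in Mov10-/-. Mov10-/- replicate 3 alone was far above the rest, and Mov10-/- replicate 4 lay within the Mov10+/+ range. The log2 fold change of Clu was 0.27 ± 0.15 (SE), with edgeR adjusted p = 0.401, and it was 0.08 without Mov10-/- replicate 3.

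The libraries ordered the members in much the same way. Among the 6 libraries, Mov10+/+ replicate 2 was the lowest for 7 of the 9 genes tested, all but Amh, lowest in Mov10+/+ replicate 1, and Clu, lowest in Mov10+/+ replicate 3. The highest value lay in Mov10-/- replicate 3 for 5 genes and in Mov10-/- replicate 2 for 4. Mov10-/- replicate 4 was the lowest of its genotype for 8 of the 9 genes, all but Fshr. Taking each gene's log2 CPM relative to its own mean over the 6 libraries, the median member was at -0.09, -0.33 and 0.01 in Mov10+/+ replicates 1, 2 and 3 and at 0.21, 0.22 and 0.02 in Mov10-/- replicates 2, 3 and 4. Mov10+/+ replicate 3 and Mov10-/- replicate 4 were thus nearly equal on this measure. Without Mov10+/+ replicate 2 the median log2 fold change of the members was 0.25 and 1 gene had an unadjusted p under 0.05. Without Mov10-/- replicate 3 the median was 0.27 and no gene had such a p, and without Mov10-/- replicate 2 the median was 0.33 and 1 gene had.

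**Figure D2:**
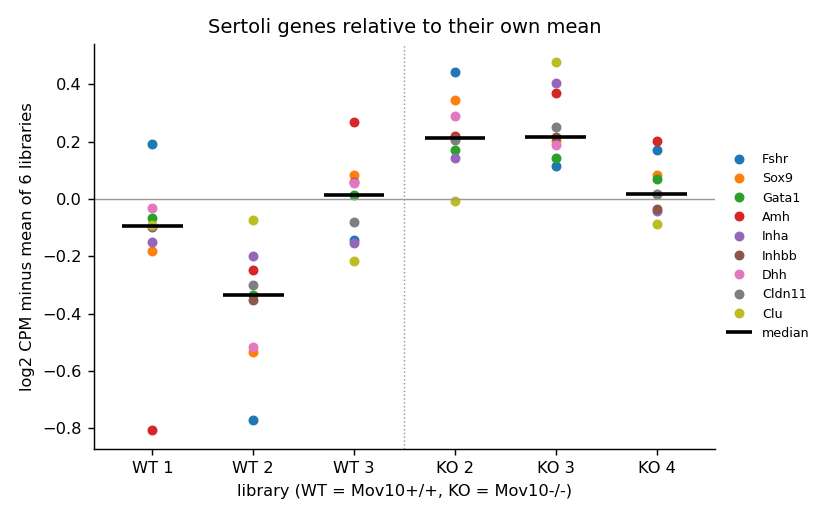
Log2 CPM of each Sertoli cell gene minus its own mean over the 6 libraries (points, 1 colour per gene) and the median of the 9 genes (black bars), by library. The median lies between -0.33 and 0.01 in the Mov10+/+ libraries and between 0.02 and 0.22 in the Mov10-/- libraries, with Mov10+/+ replicate 2 the lowest.

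Further genes of the same cell type lay on the same side. Of 22 other Sertoli cell genes, 21 passed the filter, 19 had a log2 fold change above 0, and none was called. Their median log2 fold change was 0.23. At an unadjusted p under 0.05, 4 were higher in Mov10-/-, beside 5.58% of all tested genes. In 9 every Mov10-/- library was above every Mov10+/+ library, beside 11.9% of all tested genes. The summed level of the 21 was 1739, 1459 and 1738 CPM in the Mov10+/+ libraries and 2090, 1936 and 1815 CPM in the Mov10-/- libraries. Without Mov10+/+ replicate 2 or without Mov10-/- replicate 2 their median was 0.15, and without Mov10-/- replicate 2 or 3 the number at an unadjusted p under 0.05 was 2. The 4 with the smallest p were Espn, an actin bundler of the ectoplasmic specialisation between Sertoli cells and spermatids, at 155 ± 22.5 against 227 ± 37.4 CPM (SD, n = 3 each, edgeR adjusted p = 0.159), Vim, the intermediate filament vimentin, which other somatic cells also make, at 108 ± 7.88 against 145 ± 23.0 CPM (0.182), Aard at 70.4 ± 2.47 against 86.0 ± 6.53 CPM (0.215), and Wt1, a transcription factor that maintains the Sertoli fate, at 96.1 ± 15.3 against 124 ± 7.83 CPM (0.217).

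When the libraries were scaled to these 21 genes instead of to all genes, the members' differences shrank. All 9 log2 fold changes stayed above 0, from 0.02 (Gata1) to 0.22 (Amh), their median was 0.08, none had an unadjusted p under 0.05 and no member's genotypes lay apart. On that scale the median of all tested genes was -0.21. The members were thus higher by about as much as the other genes of their cell type. CPM is a share of the RNA of a whole testis. More Sertoli cells, more RNA in each of them and less RNA from other cells cannot be told apart here.

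**Figure D3:**
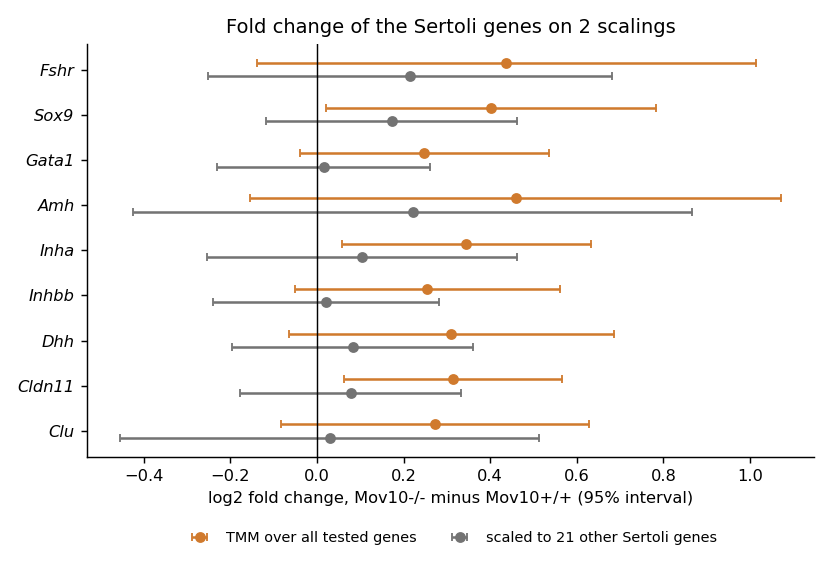
Log2 fold change (Mov10-/- minus Mov10+/+) of the 9 Sertoli cell genes with 95% intervals from edgeR, after TMM scaling over all tested genes (orange) and after scaling to 21 other Sertoli cell genes (grey). On the first scale 3 intervals lie above 0, and on the second all 9 include 0.

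The immature marker was then set against the maturing ones within each library, which no library scaling can change. The log2 level of Amh minus the mean of Cldn11, Clu and Gata1 was -2.56, -1.85 and -1.47 in Mov10+/+ replicates 1, 2 and 3, and -1.74, -1.75 and -1.63 in Mov10-/- replicates 2, 3 and 4. The Mov10-/- values lay inside the Mov10+/+ range. The means were -1.96 ± 0.55 and -1.71 ± 0.07 (SD, n = 3 each), a difference of 0.25 that is smaller than the SD of the Mov10+/+ libraries. Against each partner alone the difference was 0.21 for Cldn11, 0.27 for Clu and 0.27 for Gata1, each again smaller than the Mov10+/+ SD of 0.53 to 0.60. The sign rested on 1 library: without Mov10+/+ replicate 1, which had the lowest Amh, the difference was -0.05, and without replicate 3 it was 0.49. Rhox5 could not be used in this ratio. A shift of Sertoli cells between the immature and the maturing pattern was therefore not detectable with these libraries.

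**Figure D4:**
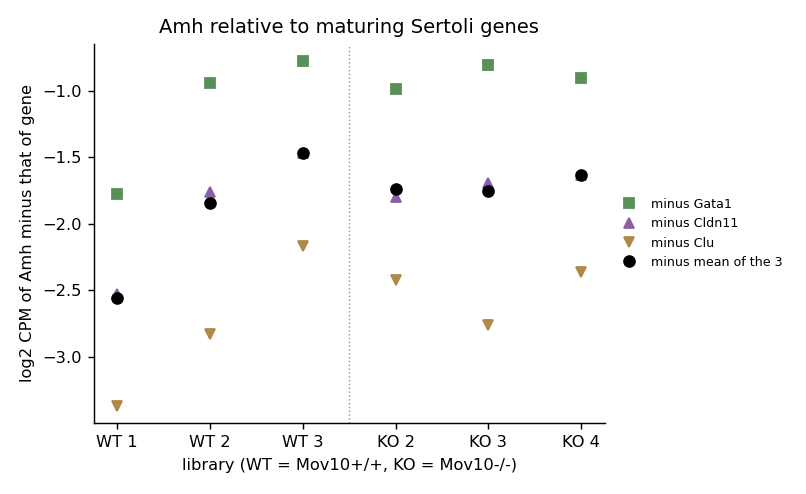
Log2 CPM of Amh minus the log2 CPM of Gata1, Cldn11 or Clu, and minus the mean of the 3, in each library. The black points run from -2.56 to -1.47 in Mov10+/+ and from -1.75 to -1.63 in Mov10-/-.

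Other genes of the maturing state lay on the same side as the members. Of 14, 13 passed the filter, none was called, and all 13 had a log2 fold change above 0, with a median of 0.26. The median fell to 0.16 if Mov10+/+ replicate 2 was left out and to 0.13 if Mov10-/- replicate 2 was, each time with 12 genes above 0. The list shares Espn, Shbg and 6 further tested genes with the other Sertoli cell genes above. Tubb3, a beta tubulin, was at 86.0 ± 3.85 CPM in Mov10+/+ and 108 ± 13.7 CPM in Mov10-/- (SD, n = 3 each, edgeR adjusted p = 0.209), and Drd4, a dopamine receptor, was at 50.9 ± 8.78 and 69.2 ± 9.94 CPM (0.244). Shbg, the androgen-binding protein, was at 54.5 ± 9.68 and 66.3 ± 6.12 CPM (0.395). These 3 were among the 5 of the 13 genes in which every Mov10-/- library was above every Mov10+/+ library, beside 11.9% of all tested genes. Other genes of the immature state went both ways. Of 5, 4 passed the filter, none was called, and Pdpn had no read. Ncam1, a cell adhesion molecule, lay apart and lower in Mov10-/-, at 38.7 ± 9.23 against 25.5 ± 2.56 CPM (edgeR adjusted p = 0.207), and Cyp19a1, the aromatase, which Leydig and germ cells also make, was at 6.63 ± 3.30 against 2.61 ± 0.627 CPM with overlap (0.215). Thra, the thyroid hormone receptor that times the end of Sertoli cell division, was at 67.3 ± 6.88 against 83.9 ± 9.57 CPM (0.261). Krt18, a keratin, was at 0.987 to 4.08 CPM in 5 libraries and at 18.7 CPM in Mov10-/- replicate 2.

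Genes of other testicular cells also differed between these libraries, and their part in the result was not tested. Of 14 spermatid genes 13 passed the filter, all with a log2 fold change below 0 and a median of -2.22. The quasi-likelihood test of edgeR put 12 of them at an unadjusted p under 0.05 and called none. The share of all tested genes that were lower at that p is not given here. DESeq2 called 10 of the 13 lower, edgeR's exact test 9, its likelihood ratio test 9 and limma voom 0. Of all 20240 tested genes these tools called 988, 1016, 1104 and 1 lower, and 5.13%, 5.37%, 5.86% and 0.00988% in either direction. The summed spermatid level was 240 to 987 CPM in Mov10+/+ and 64.4 to 211 CPM in Mov10-/-, and no defining marker was at 0 reads over the 6 libraries, though Prm1 failed the filter. Mov10+/+ replicate 2, the library lowest in most Sertoli cell genes, was the highest in spermatid genes, and without it the median log2 fold change of the spermatid genes was -1.62. Among the Mov10-/- libraries, replicate 3 was the highest in both, with summed levels of 211 CPM for the spermatid genes and 972 CPM for the 9 Sertoli cell genes. Replicates 2 and 4 were at 64.4 and 96.4 CPM for the spermatid genes and at 890 and 787 CPM for the Sertoli cell genes. Akap4 and Izumo1, of the sperm tail and of sperm-egg fusion, were at 107 ± 75.6 against 19.6 ± 12.1 CPM and at 33.7 ± 26.0 against 5.79 ± 2.72 CPM (SD, n = 3 each, edgeR adjusted p = 0.150 for both).

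Spermatocyte genes lay near 0, with 12 of 12 tested and none called, a median log2 fold change of 0.06 and a summed level of 1787 to 1939 CPM in Mov10+/+ and 1724 to 2069 CPM in Mov10-/-. The somatic lists lay mostly above 0. The median log2 fold change was 0.33 over 6 peritubular genes, whose summed level was 416 to 438 against 438 to 591 CPM, 0.21 over 8 Leydig cell genes (330 to 592 against 438 to 644 CPM), 0.22 over 6 endothelial genes (124 to 138 against 148 to 173 CPM) and 0.27 over 7 macrophage genes (161 to 265 against 208 to 300 CPM). Over 12 spermatogonial genes it was 0.19, with 550 to 704 against 697 to 763 CPM. None of these genes was called by any of the 5 tools. The medians depended on single libraries. Without Mov10+/+ replicate 2 the median was 0.13 over the Leydig and 0.07 over the spermatogonial genes. Without Mov10-/- replicate 2 it was 0.06 over the Leydig, 0.21 over the peritubular, 0.17 over the macrophage and 0.12 over the spermatogonial genes. Without Mov10+/+ replicate 1 it was 0.44 over the Leydig and 0.46 over the macrophage genes, and without Mov10+/+ replicate 3 it was 0.08 and 0.16. Without Mov10-/- replicate 4 the Leydig median was 0.34, and without Mov10-/- replicate 3 it was 0.32. Among the Leydig genes Insl3 failed the filter. Of 8 epididymal genes 3 passed, and Lcn8 and Lcn9 had no read. The summed level of those that passed was 19.8 to 38.6 CPM in Mov10+/+. It was 71.8, 10.9 and 2.72 CPM in Mov10-/- replicates 2, 3 and 4. In Mov10-/- replicate 2 Crisp1 alone was at 70.1 CPM, against 0.118 to 24.6 CPM in Mov10+/+. Rnase10 and Ly6g5b, at 0.124 and 1.61 CPM there, were below every Mov10+/+ library. Of the genes that failed the filter, Adam7 had 163 reads in Mov10-/- replicate 2, 55 in Mov10+/+ replicate 3 and 0 to 6 in each other library. Lcn5 had 25 and 15 reads in those libraries and 0 elsewhere, and Defb20 had 2 to 12 reads in every library. Cdh16, a rete testis gene that also failed the filter, had 94 and 48 reads in them and 2 to 7 elsewhere. Whether tissue from outside the testis entered Mov10-/- replicate 2 or Mov10+/+ replicate 3 was not tested. Of 5 rete testis genes 4 passed, at 125 to 168 against 102 to 135 CPM, and they went both ways. Aqp9, a water channel that made up most of that sum, was at 109, 143 and 111 CPM in Mov10+/+ and 61.9, 85.5 and 88.7 CPM in Mov10-/-, lower in every Mov10-/- library (edgeR adjusted p = 0.156), while Pax8 and Krt19 were highest in Mov10-/- replicate 2, at 18.9 and 31.3 CPM.

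**Figure D5:**
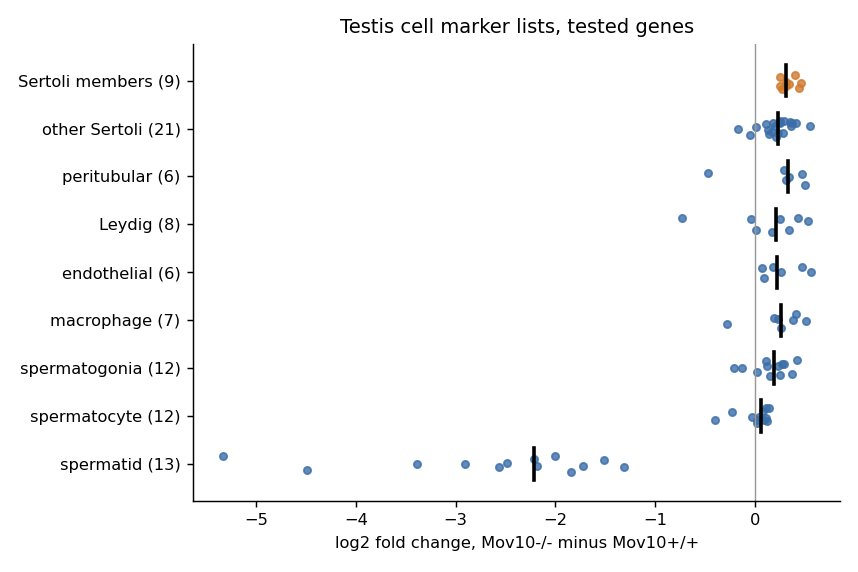
Log2 fold change (Mov10-/- minus Mov10+/+) of every tested gene (points) of the Sertoli cell genes described here (orange) and of 8 lists of testis cell genes (blue), with list medians as black bars and the number of tested genes in parentheses. The 9 Sertoli cell genes lie between 0.25 and 0.46, the medians of the other somatic lists between 0.21 and 0.33, and the spermatid genes lie between -5.34 and -1.31.

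Levels of different genes were compared per kilobase of exon (RPKM). In Mov10+/+ testes the order was Inha at 66.1 ± 1.26, Cldn11 at 50.8 ± 4.20, Clu at 50.4 ± 2.71, Gata1 at 23.2 ± 2.85, Inhbb at 22.2 ± 3.13, Dhh at 16.4 ± 3.28, Amh at 15.7 ± 5.71, Sox9 at 15.6 ± 3.28 and Fshr at 12.4 ± 3.95 RPKM (SD, n = 3 each). The ranges over libraries of neighbours overlapped for Cldn11 and Clu, for Gata1 and Inhbb, and from Dhh down to Fshr. The libraries of Inha all stood above those of Cldn11, those of Clu above those of Gata1, and those of Inhbb only just above those of Dhh. Read density over the 6 libraries had a narrow ceiling. The median tested gene had 371 reads per kilobase of exon, and the densest tested gene with over 300 bases of exon had 5725, which is 15.4 times the median and only 1.69 times Inha, at 3384. Inha lay at percentile 99.8, Cldn11 at 99.1 and Clu at 98.8 of this density, and the other 6 between 69.3 and 87.2. The sources used here do not say whether duplicate reads were removed before counting. Whether such a ceiling compresses levels or fold changes of the densest genes, Inha, Cldn11 and Clu among them, was not tested.

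MOV10 CLIP-seq reads on these genes were few. The 4 libraries held 3404 to 4934 reads on genes, so that 1 read is worth 203 to 294 CPM, and 99.5% to 99.6% of all their reads did not align. Replicates 1, 2 and 3 differed from one another by less than the sampling noise. Per degree of freedom, the chi-square statistic over genes was 0.219 to 0.237 among these 3 and 1.63 to 1.93 for each of them against replicate 5. They may be 1 library and were counted as 1 sample beside replicate 5. Of the 9 tested Sertoli cell genes, 4 had at least 1 read in the 4 libraries, beside 18.1% of all tested genes. The 9 lay between percentile 69.3 and 99.8 of RNA read density, so that share is not one over genes of like level. Cldn11 had 3, 4 and 3 reads in replicates 1, 2 and 3 and 2 reads in replicate 5. Dhh had 1, 2 and 2 reads and then 2, Clu had 2 reads in replicate 2 alone, and Inhbb had 1 read in replicate 5. The other 6 genes, Rhox5 among them, had 0 reads, which allows up to 3 reads or 608 to 881 CPM in these libraries. With the mean of replicates 1, 2 and 3 taken as 1 sample and added to replicate 5, Cldn11 had 5.33 reads, and 269 of the 4140 genes with any read, Cldn11 included, had as many or more. No immunoprecipitation control was analysed here, so these reads do not separate binding from background, and intervals and floors cover counting error only.

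For comparison of pattern only, the genes whose log2 CPM followed the members most closely over the 6 libraries were sought among the tested protein-coding genes. Amh was most like Mri1 (Pearson r = 0.997), Ier5l (0.989) and Sars2 (0.987), and 0.814% of 15730 genes had r over 0.9. The mean of the 9 standardised members was most like Kdelr2, Vps18 and Shb (r = 0.999, 0.998 and 0.998), and 7.25% of 15722 genes had r over 0.9. These correlations rest on 6 libraries that share genotype, depth and cell composition, and are a description.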

How the data were processed

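RNA-seq was performed on whole P21 testes, 3 Mov10+/+ and 3 Mov10-/- pairs, with a stranded poly(A) kit, and CLIP-seq on 4 libraries. The authors deposited whole-number read counts per Ensembl gene for each library. Per the labels and methods, reads were aligned with STAR to mm10 and counted with HTSeq (versions are not given in the sources used here). Each library has its own counts; per the methods the 6 RNA-seq libraries were mixed in equal parts only for sequencing. Whether duplicate reads were removed before counting is not given in the sources used here.

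Of 55421 gene identifiers, 55240 matched the GENCODE vM21 annotation, from which symbols, positions and exon lengths were taken; promoter windows come from RefSeq on GRCm38.p6, and 7 of 10 members had an entry. Rows that name no gene (no feature, ambiguous, not unique, not aligned) were left out of library sizes and held 52.8% to 71.7% of the RNA-seq reads. Genes with RPM above 1 in at least 3 of 6 libraries were tested with edgeR 4.0.16 (R 4.3.3; TMM, quasi-likelihood test, Benjamini-Hochberg over all 20240 genes), with calls at an adjusted p below 0.05 and more than a 2-fold difference. Alternatives used DESeq2 1.42.0, edgeR's exact and likelihood ratio tests, limma 3.58.1, other scalings and filters, a replicate block and each library left out. The fit was tested on simulated counts.

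The members and the gene lists were chosen with earlier results of these data known, so no p-value was computed over a list. All 10 members are named. From each other list the 4 genes with the smallest p could be named, plus pathway genes whose genotypes did not overlap. Genes beyond this rule (Insl3, Prm1, Pdpn, Lcn5, Lcn8, Lcn9, Adam7, Defb20, Cdh16, Inhba and the Rhox genes) were chosen after their values were seen. The planned ratio of Amh to the maturing members left out Rhox5, which failed the filter. Counting depth limits each value: 1 read was 0.108 to 0.197 CPM in RNA-seq.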

Additional observations from a re-analysis of the deposited data

Results flagged for a closer look

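Cldn11 was the member with the most MOV10 CLIP-seq reads, 4 in replicate 2, above the 3 reads that a count of 0 allows. It is listed because these libraries take no part in the comparison of genotypes. Replicates 1 and 3, which differ from replicate 2 by less than the sampling noise, had 3 reads each and replicate 5 had 2, so the value passed that limit in 1 library only. The genotype groups of 3 libraries are too small for a test of single outlying libraries.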

How the results depend on the processing

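None of the 9 members tested was called under any of 16 alternatives, and all 144 log2 fold changes stayed above 0. The median log2 fold change of 0.31 became 0.082 after scaling to the other Sertoli cell genes, and without 1 library it was 0.25 to 0.38. The count of 3 genes at an unadjusted p under 0.05 became 0 on that scaling and 0 with the replicate block, and without 1 library it was 0 to 4. The count of 3 genes with genotypes apart became 0 on that scaling. It was 4 with DESeq2 size factors in edgeR, with RPM above 1 in all 6 libraries and with no filter, and 3 with total counts only. Without 1 library it was 4 to 7, where fewer libraries overlap less often. The matching shares of all tested genes are not given here. Amh relative to the maturing genes, 0.25, was -0.05 to 0.49 without 1 library. Over the alternatives the adjusted p of Cldn11 ran from 0.135 to 0.872 and that of Inha from 0.157 to 0.821.

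The genotypes share the replicate numbers 2 and 3, but the deviations of same-numbered libraries correlated at -0.463 and -0.344, so the numbers were not taken to pair them. A replicate block gave a median log2 fold change of 0.42. In that fit the genotype difference rests on replicates 2 and 3 alone. Mov10+/+ replicate 1 and Mov10-/- replicate 4 share their number with no library of the other genotype. The other tests and the block change no CPM, so they give no value for the genotypes apart or the Amh ratio. No filter on low counts let Rhox5 in, with its single read. Beyond the libraries that each setting uses, the cause of these shifts was not tested. Depth limits Rhox5 and the CLIP-seq values, where 1 read is worth more than most members' RNA-seq level.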
